A study of Mus musculus with 12 samples.

Results

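Regions of the mouse hippocampal genome that carried 5-hydroxymethylcytosine (5hmC) on exons in most, but not all, of 6 libraries are described here. Peaks of the 6 libraries on chromosomes 1 to 19 were pooled and merged where they shared at least 1 bp, which gave 74401 regions. A region was kept when exactly 4 or 5 of the 6 libraries had a peak in it, when it touched an exon of the RefSeq transcripts in the control RNA table, and when none of its bases lay within 1 kb of a transcript start. This left 1541 exonic regions, 1008 of them in 4 libraries and 533 in 5. Of the 6955 regions found in 4 or 5 libraries, the others were 2466 regions within introns, 2404 between genes and 544 at promoters, defined as touching a base within 1 kb of a start. The peak calls themselves chose the regions, so the regions were selected on the measured calls; which libraries held them, how long they were and how they scored are given as descriptions without a test.

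All samples came from male C57BL/6 mice, 7 weeks old by the treatment protocol although the age tag of each sample reads postnatal day 28. The stress group (6 mice) was restrained for 30 min and housed singly for 1 h before brief isoflurane anaesthesia and dissection, and the control group (5 naive mice) was not restrained but was anaesthetised in the same way. Micropunched hippocampal DNA was pooled from at most 2 mice a library, with 1 pool of a single mouse. This gave 3 libraries per group (stress 1 to 3 and control 1 to 3). If each mouse entered 1 pool, the 6 stress mice filled 3 pools of 2. The single-mouse pool would then be a control library, and the labels do not say which. RNA was available as 1 table of FPKM (fragments scaled to transcript length and library size) per group, so RNA levels have no replicate. The control table held markers of the dentate gyrus (Prox1, 23.8 FPKM), CA1 (Wfs1, 19.0 FPKM) and CA3 (Nptx1, 65.5 FPKM), the main hippocampal fields.

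The TET enzymes make 5hmC by oxidising methylated cytosine, and the mark is abundant in neurons, where it is known to lie in the bodies of active genes. Exons carry a higher density of CpG dinucleotides than the introns around them. An internal exon is joined to neighbours on both sides by splicing, whereas a last exon holds the end of the coding sequence and, usually, most of the 3′ untranslated region. The tables used here do not separate coding from untranslated bases. In a bulk tissue, a peak gained in fewer cells and a weaker mark in all cells cannot be told apart.

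The lists differed in length. Stress 1, control 1 and control 3 held 15177, 17176 and 16303 peaks on the autosomes, and stress 2, stress 3 and control 2 held 27784, 31636 and 27897. The median peak was 976, 1062 and 1046 bp long in stress 1 to 3 and 896, 965 and 935 bp in control 1 to 3. Peaks within the exonic regions were 4.43% to 6.54% of each list.

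Most of the exonic regions lay on internal exons. Of the 1541, 1107 (71.8%, exact binomial 95% interval 69.5 to 74.1, counting error only) touched internal exons alone and 325 (21.1%, 19.1 to 23.2) touched last exons alone. Another 100 touched several classes, 99 of them an internal and the last exon. A first exon alone was touched by 6 regions and a transcript of a single exon by 3. The share of regions on exons rose with the number of libraries, from 16.4% of regions in 1 library through 22.3% in 4 and 22.0% in 5 to 24.6% in all 6. With only the middle 500 bp of each region counted, so that longer regions had no more chance to touch an exon, the share still rose, from 13.6% in 1 library to 22.2% in 6.

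Since no base may lie within 1 kb of a start, only a long first exon can be touched. The first exon of Kcna6, a voltage-gated potassium channel subunit encoded largely by 1 exon, is 5460 bp long. Its region at chr6:126687651-126689532 (mm9) was wholly exonic and was covered over 1772, 1816 and 1510 bp in stress 1 to 3, over none in control 1, and over 1698 and 944 bp in control 2 and control 3. The region on Mn1, a transcriptional regulator, at chr5:111849408-111851710 had 1496 exonic bases, and that on Kif3c, a kinesin motor subunit, at chr12:3366556-3367937 had 976. Both were held by the 3 stress libraries and control 2 alone. All 6 first-exon regions were held by all 3 stress libraries. So were 43.3% (3014 of 6955) of all regions kept by the same rule on library number. Under that rule, such regions must lack 1 or 2 control libraries, so the missing control libraries add nothing further. Stress 2 and stress 3 had long lists, and the difference of the 6 regions from this background was not tested.

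Regions on internal exons were mostly intronic in sequence. Their median length was 1540 bp, and a median of 189 bp (12.5%) was exonic. The exon holding most of the overlap had a median length of 163 bp, against 124 bp for all internal exons in the table. That choice favours longer exons, and the contrast was not adjusted for it. The regions were kept for touching an exon, which by itself places coverage near it, so the profile around the exon is a description. At the exon's centre, 86.0% of the libraries holding the region had a peak, and this fell to 59.0% at 500 bp upstream and 53.7% at 500 bp downstream, then to 22.5% and 17.8% at 1000 bp. Peak centres fell on exonic bases in 31.9% of 4805 peaks, whereas 20.2% of the bases of these regions were exonic. Coverage was thus highest over the exon although most of the covered sequence was intronic.

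**Figure D1:**
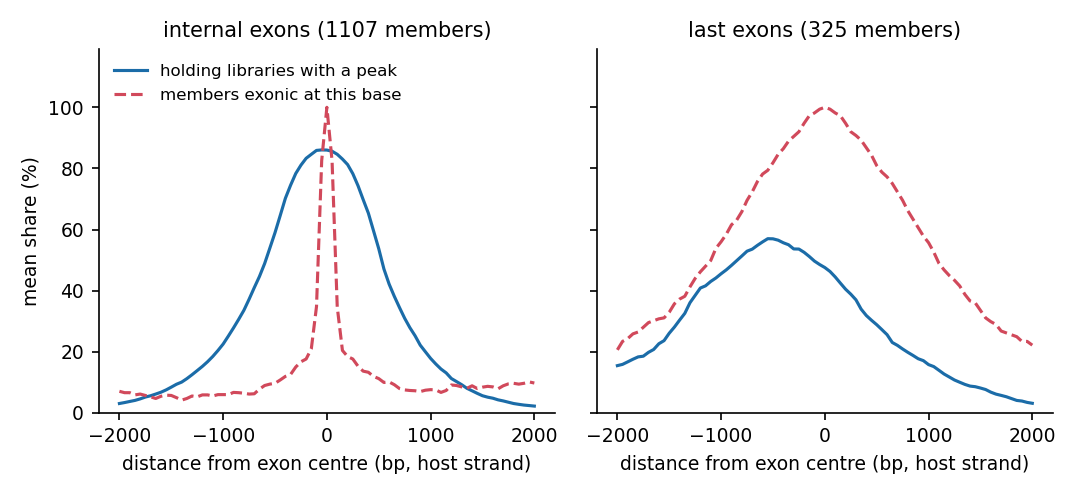
Mean share of the libraries holding a region that had a peak at each distance from the exon's centre (solid), and share of regions whose base at that distance was exonic (dashed), for 1107 regions on internal exons and 325 on last exons, with distance in bp along the host strand. Peak coverage was highest over the internal exon (86.0% at its centre) and upstream of the centre of the last exon (57.0% at 500 bp upstream against 47.6% at the centre).

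Long internal exons were touched more often than short ones. A region touched 0.702% of internal exons under 100 bp, 0.929% of those of 100 to below 200 bp, 1.38% of those of 200 to below 500 bp, 3.70% of those of 500 to below 1000 bp and 6.95% (79 of 1137) of those of 1000 bp or more. A longer exon offers more bases to touch, so these shares are not rates per base. The region with most bases on an internal exon was on Hivep2, a large zinc finger transcription factor. At chr10:13848535-13852772 it had 4070 bp on the exon at 13847099 to 13852604, the fourth of 9. Its covered length was 2325, 2428 and 4238 bp in stress 1 to 3 and 2543 bp in control 2, with no peak in control 1 and control 3. Akap12, a scaffold that anchors protein kinase A, had 3591 exonic bases at chr10:5988311-5992192, and every library except control 3 held it. Its covered length in the 3 stress libraries (2027, 3443 and 3808 bp) overlapped that in control 1 and control 2 (1964 and 2408 bp).

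Akap13, another kinase A anchor, had similar coverage in all the libraries holding it. The region chr7:82753336-82757561 was covered over 3761, 3718 and 3579 bp in stress 1 to 3 and over 3989 and 3598 bp in control 1 and control 2, and 3071 bp were common to these 5 libraries. The exon itself is 3076 bp long. On Zfp423, a zinc finger factor of neural development, the 3215 bp exon lay inside the region chr8:90303793-90307752. Coverage there was 3434, 3711 and 3854 bp in stress 1 to 3 and 1829 and 1594 bp in control 2 and control 3, with none in control 1. Over all exonic regions a library held, the median covered length was 1141, 1290 and 1313 bp in stress 1 to 3. It was 1014, 1156.5 and 1029.5 bp in control 1 to 3. How many regions had separate stress and control values was not counted. Map1a, which binds microtubules, had 3701 exonic bases at chr2:121124288-121128481, but its 4 libraries covered between 1100 and 2091 bp each and had no base in common. Regions of this kind join neighbouring peaks, and 47 of the 1541 had no stretch shared by all their libraries.

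At the other end of the scale, Dnm3, a dynamin that cuts vesicles from membranes, was touched at chr1:164004606-164006479 over an exon of 12 bp. This was the smallest overlap of the set, and 22 regions overlapped exons by 12 to 49 bp. The 5 libraries holding it shared 1280 bp.

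Internal exons touched were not mainly alternative ones. Where the table listed several isoforms spanning the exon, the exon was present in all of them in 316 of 347 regions (91.1%, 87.6 to 93.8). Among all internal exons of the same genes the share was 92.9% (5236 of 5636). Exceptions included the isoform-specific exons of Grip1, a scaffold for glutamate receptors (exon in 2 of 6 isoforms at chr10:119422014-119423915), and Srsf3, a splicing factor (1 of 2 isoforms at chr17:29176204-29177549).

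Regions on last exons were mostly exonic. Their median length was 1645 bp, of which a median of 1077 bp (71.8%) was exonic. The exon had a median length of 2159 bp against 988 bp for all last exons of the table. A longer exon offers more bases to touch, and this contrast was not adjusted for that. Peaks lay toward the exon's start. A peak was present in 57.0% of holding libraries at 500 bp upstream of the exon's centre, 47.6% at the centre and 28.8% at 500 bp downstream. The intron before the last exon was entered by 238 of 325 regions (73.2%), and the annotated transcript end was passed by 99 (30.5%). Peak centres fell on exonic bases in 74.5% of 1413 peaks, against 64.9% of bases.

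Nrip1, a corepressor that nuclear receptors including the glucocorticoid receptor recruit, had the most last-exon bases, 3641 at chr16:76291620-76296290. Coverage was 3584, 4313 and 4511 bp in stress 1 to 3 and 4146 and 3591 bp in control 2 and control 3, and 3470 bp were common to these 5. Only control 1 had no peak, and the other control values lay within the stress range. Zbtb38, a zinc finger protein that binds methylated DNA, had 3607 bases at chr9:96585130-96589699, and its whole annotated last exon (3607 bp) lay inside the region. Control 1 again had no peak. Zbtb39 had 3230 bases at chr10:127177860-127181800 and lacked a peak in control 3 alone. Flrt1, an adhesion protein of neuronal membranes, had 3210 bases at chr19:7168510-7172797 and lacked control 1 and control 3. Etnk1, an ethanolamine kinase of phospholipid synthesis, came directly after Nrip1 in last-exon bases and ran the other way: 3619 bases at chr6:143153184-143156802 were covered in stress 1 and in all 3 control libraries (2481 bp against 2488, 2028 and 3471 bp), while stress 2 and stress 3, both with long lists, had no peak.

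Measured in bases, the split over internal and last exons was close to that of the annotation. Of all exonic bases more than 1 kb from a start, 44.2% were internal, 53.0% last and 0.610% first. Of the exonic bases in the regions, 47.3% were internal, 51.5% last and 0.871% first. Transcripts of a single exon departed from this, with 2.26% of the annotated bases and 0.356% of those in the regions.

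Along the host transcript, regions on internal exons were placed between introns and exons at large. With each transcript divided into 5 equal parts from start to end, the 1107 regions fell 13.2%, 18.9%, 23.9%, 22.8% and 21.2% into the successive parts. All internal exons of the same transcripts more than 1 kb from the start (16440) fell 7.42%, 14.3%, 20.1%, 26.6% and 31.6%, so they crowded toward the end. The 2466 intron regions found in 4 or 5 libraries showed the opposite order, with 30.9% in the part nearest the start and 10.3% in the part nearest the end. The median distance to a start was 23.2 kb for all exonic regions and 37.2 kb for intron regions. Their host genes had median body lengths of 42.3 and 102 kb, so these distances are not matched on gene length. The median position along the transcript was 68.3% for all exonic regions and 36.3% for intron regions. At the edge of the promoter rule, the nearest exonic region lay 1006 bp from a start, 66 lay no more than 500 bp beyond the edge, and 95 of the 283 exon-touching regions left out by the rule lay 500 to 1000 bp from one.

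**Figure D2:**
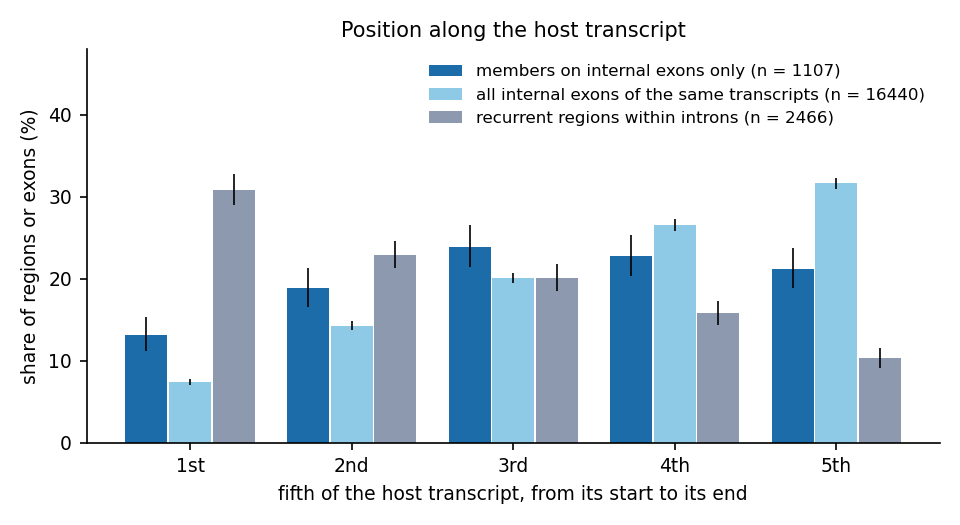
Share of regions or exons (%) in each of 5 equal parts of the host transcript, for 1107 regions on internal exons, all 16440 internal exons of the same transcripts and 2466 intron regions; lines are exact binomial 95% intervals, which cover counting error only. Exons crowd toward the transcript end, intron regions toward its start, and the exonic regions lie between them.

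The 6 libraries did not hold the exonic regions equally. Stress 1 to 3 held 64.2%, 87.3% and 90.5% of them, and control 1 to 3 held 51.3%, 86.0% and 55.2%. For the other 5414 regions in 4 or 5 libraries the shares were 61.0%, 85.2% and 87.1% in stress and 56.9%, 84.3% and 60.4% in control. Each stress library, and control 2, thus held a larger share of exonic than of other regions, and control 1 and control 3 a smaller one. The 3 libraries with short lists were the ones most often missing in both sets. Among regions in 5 libraries, control 1 was the missing one in 174 of 533, control 3 in 139 and stress 1 in 124. Among regions in 4 libraries, control 1 and control 3 were the missing pair in 303 of 1008 (30.1%), against 21.0% of the other regions in 4 libraries.

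**Figure D3:**
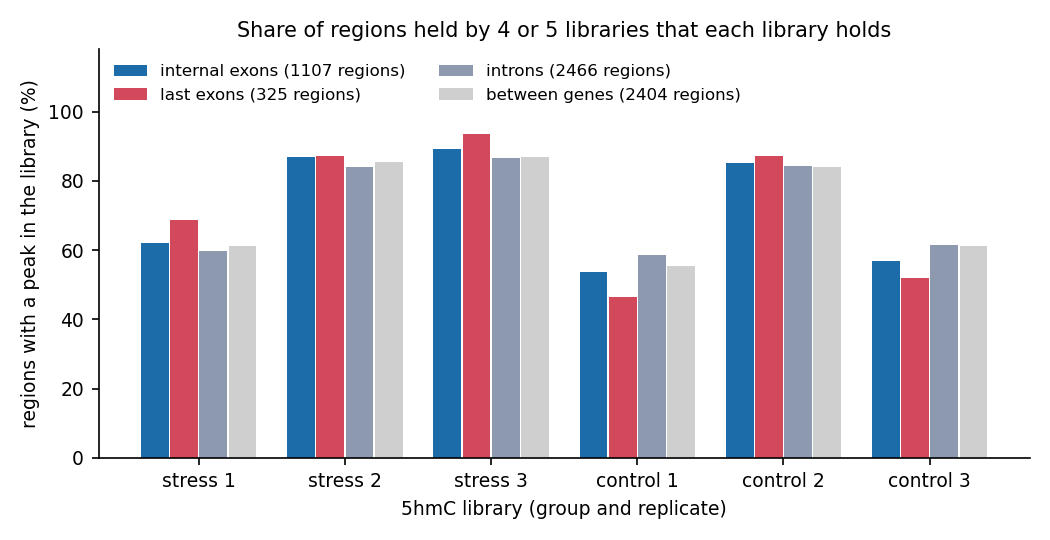
Share of the regions in 4 or 5 libraries (%) in which each library had a peak, for internal exons, last exons, introns and regions between genes. Control 1 and control 3 held less of the exonic than of the intron regions, and the gap was wider for last exons (46.5% and 52.0%) than for internal exons (53.7% and 56.9%).

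More stress than control libraries had a peak in 746 of the 1541 regions (48.4%), against a background of 43.3% over all regions in 4 or 5 libraries. More control than stress libraries had one in 279 (18.1%), against a background of 21.4%. Equal numbers held the other 516 (33.5%). Shares with 1 library left out are scored on another footing. With 3 libraries of 1 group against 2 of the other, no region could have equal shares of both. Every region then counted to 1 group, so the values below are not comparable with 48.4% and serve only to set exonic beside other regions. With control 1, control 2 or control 3 left out, 73.8%, 79.9% and 74.7% of exonic regions and 66.4%, 73.9% and 68.9% of the others had more stress libraries. With stress 1, stress 2 or stress 3 left out, a larger share of the stress than of the control libraries held 69.7%, 51.6% and 50.1% of exonic regions. The same was so for 60.6%, 43.6% and 43.8% of the others. These settings took regions in 3 or 4 of the other 5 libraries. With all 6 libraries, the share with more stress libraries was 45.2% on internal exons and 54.2% on last exons, and it was 40.2% within introns, 41.6% between genes and 51.1% at promoters. In each of 4 length classes the share was higher for exonic regions than for introns and for regions between genes. In the shortest class it was 39.7% for exonic regions, 35.0% for introns and 37.8% between genes, and in the longest it was 58.7%, 45.1% and 53.0%.

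This leaning grew with the exonic share of the region, a relation looked for after the values above were seen. More stress than control libraries held 37.8% of regions under 10% exonic, 44.1% of those of 10% to below 25%, 50.7% of those of 25% to below 50%, 64.6% of those of 50% to below 75% and 62.4% of those of 75% or more. The median length of these classes varied between 1409 and 1715 bp without following that order. Over the same classes the share with more control libraries went from 23.6% to 19.0%, 16.7%, 11.1% and 12.9%. Internal exons alone showed it (37.8% below 10% exonic, 68.3% of 82 regions at 50% to below 75%), and last exons alone did too from 10% upward (29.6% of 27, 43.3%, 59.2% and 61.6%).

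The libraries with short lists carried most of the shift. From the least to the most exonic class, stress 1 went from 55.4% to 75.2% of regions held, while control 1 went from 57.2% to 41.9% and control 3 from 64.5% to 48.1%. Stress 2, stress 3 and control 2 moved by less, from 85.4% to 87.6%, from 87.4% to 94.8% and from 84.7% to 87.6%. Because every region is in 4 or 5 libraries, a higher share in 1 library requires a lower share elsewhere, so the 6 lines are not independent. With stress 1 left out and regions in 3 or 4 of the other 5 libraries taken, the mean share held by stress libraries exceeded that of control libraries by 22.2 percentage points below 10% exonic and by 39.3 points at 50% to below 75% and 33.5 points at 75% or more. Leaving out each other library in turn, the gap also widened, from between 1.75 and 20.4 points below 10% exonic to between 23.3 and 50.1 points at 50% to below 75%, and was between 20.6 and 42.2 points at 75% or more. With equal numbers of the best-scoring peaks taken from every library, the shares with more stress libraries ran 42.4%, 44.3%, 50.3%, 62.7% and 63.7%. With the same covered length they ran 34.9%, 40.7%, 48.9%, 58.6% and 59.6%. With the higher-scoring 50% of each list they ran 46.1%, 41.4%, 52.9%, 65.8% and 62.2%, so the step between the lowest classes was lost. Among regions below 1500 bp they ran 32.2%, 37.8%, 48.7%, 58.1% and 47.4%, with a lower share in the most exonic class. All these settings used the same peak calls that chose the regions, so they are descriptions and do not test the relation independently. The part of list length and peak length in this relation beyond these settings was not tested.

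**Figure D4:**
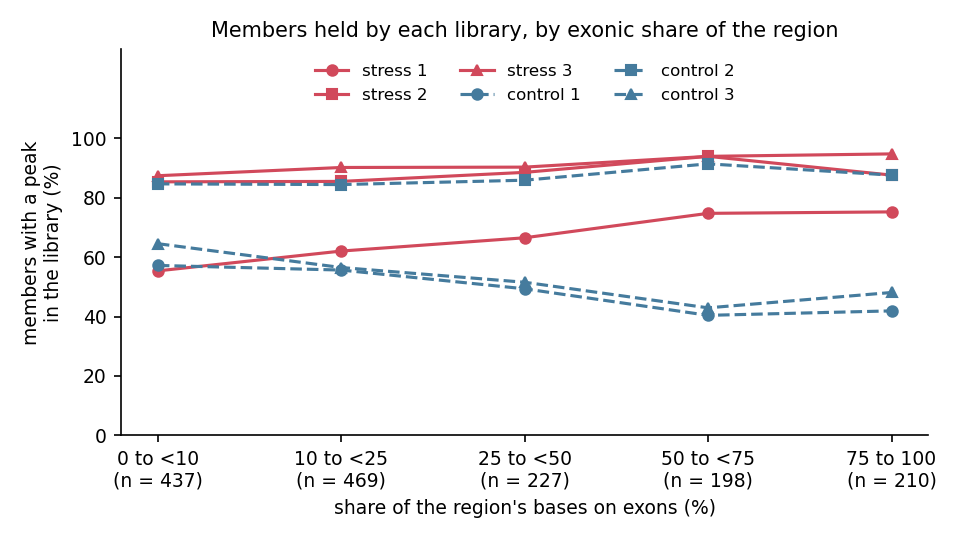
Share of exonic regions (%) in which each library had a peak, by the share of the region's bases that were exonic (5 classes, number of regions under each). Stress 1 rises from 55.4% to 75.2% while control 1 and control 3 fall to 41.9% and 48.1%; the 3 libraries with long lists stay above 84%.

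Over all exonic peaks, not only those in these regions, the groups could be tested. Peaks over 50% exonic were 30.5%, 26.8% and 27.9% of exonic peaks in stress 1 to 3 and 26.5%, 27.0% and 27.0% in control 1 to 3. The mean was 28.4% ± 1.89 (SD, n = 3) in stress and 26.8% ± 0.245 (SD, n = 3) in control, and the difference did not pass the threshold (exact two-sided permutation test, p = 0.3). Stress 1 stood above the other 5 libraries, and stress 2 lay within the control range. Internal exons alone were touched by 71.5% ± 1.07 of exonic peaks in stress and 72.7% ± 0.362 in control (SD, n = 3; exact p = 0.2, adjusted p = 0.45 over 3 classes). Last exons alone were touched by 21.9% ± 1.14 and 22.9% ± 0.648 (SD, n = 3; exact p = 0.3, adjusted p = 0.45), and first exons alone by 0.394% ± 0.169 and 0.343% ± 0.0170 (SD, n = 3; exact p = 0.9, adjusted p = 0.9). With 3 libraries against 3, the smallest p this test can give is 0.1, above the threshold of 0.05, so no difference could pass it.

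The exonic regions touched 1449 of 22835 autosomal genes, a background of 6.35%. Among genes of at least 10 kb they touched 1264 of 13403 (9.43%), and regions held by 5 libraries touched 456 (3.4%). A single region was found on 1345 genes, 2 on 94, 3 on 7 and 4 on 3. The share touched was larger for longer genes, up to 300 kb for genes under 1 FPKM, and was higher for genes at 1 FPKM or more in the control table. Below 10 kb, 4.09% of such genes and 0.953% of genes under 1 FPKM were touched, from 100 to below 300 kb the shares were 18.7% and 10.9%, and from 300 kb they were 23.7% and 10.6% (10 of 94). By RNA level, among genes of at least 10 kb, 3.43% of those under 0.1 FPKM were touched, 8.31% from 0.1 to below 1, 11.0% from 1 to below 10, 14.2% from 10 to below 100 and 15.7% (11 of 70) from 100 FPKM.

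**Figure D5:**
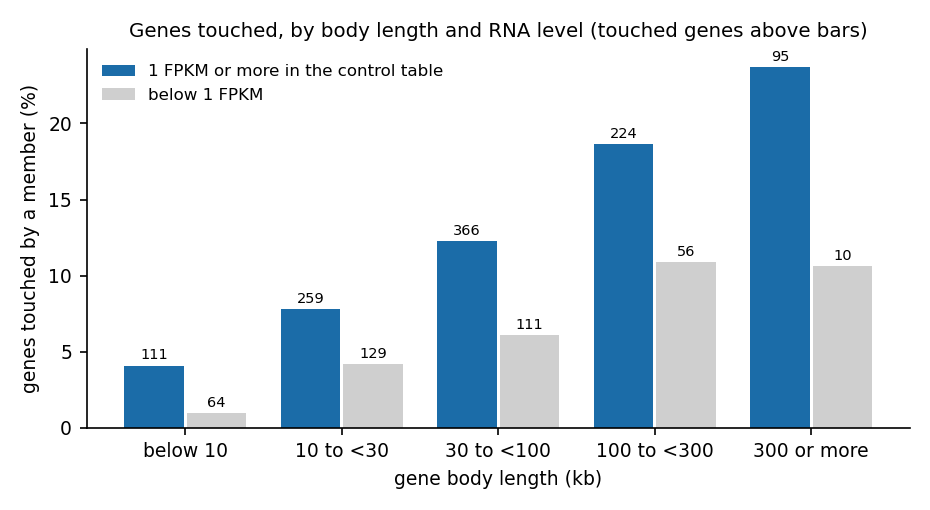
Share of autosomal genes (%) touched by an exonic region, by gene body length in kb, for genes at 1 FPKM or more and genes below 1 FPKM in the control table; the number of touched genes stands above each bar. The share is higher for the expressed genes in every length class and rises with length, except that below 1 FPKM it is 10.9% from 100 to below 300 kb and 10.6% from 300 kb.

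Of the genes with most regions, several were long, whereas Hnrnpm, an RNA-binding protein gene (3 regions, 39.2 kb), and Kif5a, a kinesin gene (2 regions, 37.7 kb), were below the host median of 42.3 kb. Dopey2, a gene of endosomal traffic, had 4 regions on chromosome 16 in a body of 98.7 kb, and control 1 had no peak in the 3 of them held by 5 libraries. The largest, chr16:93768584-93771388, covered the whole of exon 19 of 37 (1633 bp) and was covered over 1943, 2097 and 2067 bp in stress 1 to 3 and over 2237 and 2452 bp in control 2 and control 3. Atp8a2, a flippase that moves phospholipids across neuronal membranes, had 4 regions in 439 kb, 3 of them held by 5 libraries. Thsd7a, a membrane protein with thrombospondin repeats, also had 4, in 438 kb. Ank3, which encodes ankyrin-G of the axon initial segment, had 3 regions in 494 kb, and stress 1 had a peak in none of them. Notch2, a cell surface receptor, had 3, and stress 2, stress 3 and control 2 had a peak in all of them. Nod2, a sensor of bacterial cell wall fragments, had 3 regions in 41.1 kb, also below that median, although it was listed at 0.0253 FPKM in the control and 0.0198 FPKM in the stress table.

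Each peak was ranked by its score within its own list, and a median percentile above 90 over the libraries holding the region was reached by 15.7% of last-exon regions, 11.1% of internal-exon regions and 7.26% of intron regions. The highest was on Thy1, a surface glycoprotein of neurons, at chr9:43855084-43858682, where the last exon supplied 1241 of 3599 bp. Stress 2, stress 3, control 2 and control 3 covered 2699, 3477, 3522 and 3461 bp, and stress 1 and control 1 had no peak there at all. Chpf, an enzyme of chondroitin sulphate synthesis, followed with a last-exon region at chr1:75470985-75473031, missing in control 3. Then came last-exon regions on Zfp672 and Repin1, which encode zinc finger proteins. Bsg, the surface protein basigin, had a region over 6 exons at chr10:79171046-79174041 and Zscan10, a zinc finger gene listed at 0 in both RNA tables, had 1 on exon 6 of 6.

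Of 1066 host genes averaging 1 FPKM or more, 2 lay 2-fold or more higher in the stress table on the log2(FPKM + 1) scale, against a background of 0.299% of 10685 genes, and 1 lay 2-fold or more lower, against 0.281%. Neither count exceeded the background share in this setting. With the most abundant isoform of each gene in place of the sum, 15 of 1045 host genes and 120 of 10504 genes in all were higher, a larger share of the host genes. The higher ones were Fos, an immediate early transcription factor (0.600 FPKM in control, 3.34 in stress), and Mfsd2a, a lipid transporter of brain endothelium (1.93 and 4.94 FPKM). The lower one, the RNA-binding protein gene Hnrnpr, was listed at 7.79 FPKM in the control and at 0 in the stress table. Whether this 0 is a fall in RNA or a gene left unquantified was not tested. The median log2 difference was 0.11 over host genes and 0.08 over all genes kept. It was 0.10 for hosts of regions with more stress libraries, 0.11 with more control libraries and 0.11 with equal numbers. Summed markers of choroid plexus and ependyma were 245 FPKM in the control and 71.9 FPKM in the stress table, and no gene of that list had an exonic region. The part of tissue composition in the RNA differences was not tested.

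Fos and Mfsd2a differed in the libraries that held them. The Fos region, chr12:86816551-86818496, covered 1552 exonic bases of the gene's 3′ part, and coverage was 1393 and 1091 bp in stress 1 and stress 3 and 533 and 1570 bp in control 1 and control 2. Stress 2 and control 3 had no peak, so the groups overlapped. At Mfsd2a, chr4:122633928-122635616 was covered over 1145, 1338 and 1689 bp in stress 1 to 3 and over 1453 bp in control 2, and it included 125 bp of exon 3 of 14. The 1145 bp common to these 4 libraries held no exonic base.

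Among 21 gene lists, the share of genes with an exonic region varied widely. Exonic regions were found on 8 of 23 glutamate receptor genes, 10 of 32 genes of the cytoskeleton, ankyrins and spectrins, 11 of 37 chromatin and histone modifiers, 8 of 27 synaptic scaffolds and adhesion proteins, and 10 of 35 voltage-gated channels. Against the 9.43% over genes of at least 10 kb, these lists had median body lengths of 378, 95.4, 83.7, 151 and 175 kb, where the median over those genes was 31.8 kb, so the shares are not matched on length. With regions held by 5 libraries only, the counts in the same order were 2, 5, 3, 4 and 1, against 3.4% of genes of at least 10 kb, and the single channel gene of 35 (2.86%) was below that share. Calcium, cAMP and kinase signalling followed with 7 of 32 genes, presynaptic release with 6 of 29, stress hormone signalling with 4 of 21, DNA methylation and 5hmC machinery with 3 of 19, glucocorticoid-induced genes with 4 of 29, immediate early genes with 3 of 29, RNA splicing and binding with 3 of 30, and axon guidance with 4 of 41, although the last list had a median length of 291 kb. Markers of astrocytes (1 of 14, Gja1), microglia (1 of 14, Ctss), endothelium (1 of 14, Mfsd2a), hippocampal fields (1 of 13, Wfs1) and inhibitory neurons (1 of 13, Reln) had 1 gene each, shares of 7.14% to 7.69% that were near the background. Markers of oligodendrocytes (13 in the table), of choroid plexus and ependyma (14) and of thalamus and neocortex (14) had none. The thalamus and neocortex list had a median body length of 137 kb, and the other marker lists had medians between 8.40 and 47.9 kb.

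Glutamate receptor genes were touched on long exons in several cases. Grin2b, the NMDA receptor subunit GluN2B, carried a region on the last of 15 exons at chr6:135681511-135684160 with 2456 exonic bases. Coverage was 2468, 2419 and 2650 bp in stress 1 to 3 and 1986 and 1636 bp in control 2 and control 3, with none in control 1. How often stress and control lengths separated in this way over all exonic regions was not counted. Grm5, a metabotropic receptor, had 2 regions that different libraries held. The region on exon 9 of 11 at chr7:95222509-95223979 was missing in stress 1 and stress 2, and the region on the last exon at chr7:95278841-95279917 was missing in control 1 and control 3. Grm4 and Grm3, also metabotropic receptors, were touched on exons of 936 and 856 bp. The region on Grin1 touched internal exons of that gene and lay wholly inside the last exon of the antisense transcript Grin1os. Peaks carry no strand, so it cannot be assigned to one of them.

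Other list genes included regulators of the mark and of the stress response. Tet2, one of the enzymes that make 5hmC, had a wholly exonic region of 1826 bp on exon 3 of 11 at chr3:133149832-133151657. Stress 2, stress 3, control 2 and control 3 covered 1670, 1327, 1192 and 1041 bp, and stress 1 and control 1 had no peak. Dnmt3b, a DNA methyltransferase, and Mbd3, of the methyl-CpG-binding family, were each touched on an internal exon. Nr3c2, the mineralocorticoid receptor that binds corticosterone in hippocampal neurons, had its 1759 bp exon 2 inside the region chr8:79431915-79434119. Coverage was 838, 885 and 2192 bp in stress and 919 and 2061 bp in control 1 and control 2, so the groups overlapped. Zbtb16, a zinc finger gene induced by glucocorticoids, had 1357 exonic bases at chr9:48639425-48641904 in the 3 stress libraries and control 2, and its RNA was 10.0 FPKM in the control and 15.3 FPKM in the stress table. Srrm2, a spliceosome scaffold, had a wholly exonic region of 2439 bp at chr17:23955342-23957780 that only control 3 lacked. Wfs1, a CA1 marker that encodes an endoplasmic reticulum protein, had a wholly exonic region on its last exon, chr5:37357484-37359844, in the 3 stress libraries and control 2. Gja1, the astrocyte connexin, had a last-exon region at chr10:56107157-56108961 that stress 1 and stress 2 lacked.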

How the data were processed

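Per the labels' protocols, 5hmC in sheared DNA (300 bp) was labelled with a modified glucose, captured through biotin and sequenced as 50 nt reads. The authors deposited 1 peak list per library with a score for each peak, 50 or more. The submitters' processing notes name Bowtie 0.12.9 and mm9; peak names are those of MACS, and its version and any input library are not given in the sources used here. Scores ranked peaks within a list only. For RNA the authors deposited 1 Cufflinks 2.1.1 table per group with FPKM per transcript, which were summed per gene. No counts are given, so the depth of the RNA tables is unknown.

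Exons were classed by strand, and coordinates are mm9, 1-based. A region touching exons of 1 class only took that class. Class shares were compared by exact permutation over 20 assignments with Benjamini-Hochberg adjustment, and RNA by log2 with a pseudocount of 1. Python 3.11.15, numpy 2.4.6, pandas 2.3.3 and scipy 1.17.1 were used, and the steps were tested on simulated data. The regions and gene lists were chosen with earlier results of these data known. Genes named were the 12 with most regions, the 5 regions with most exonic bases per class, the 6 highest median score percentiles, list members in 5 libraries with the longest common stretch and the extreme RNA differences. Trappc9 and other genes under this rule are not described, and Grip1, Srsf3, Grin1, Grm4, Grm5, Dnmt3b, Mbd3, Tet2, Nr3c2, Zbtb16, Wfs1, Gja1, Ctss and Reln were added after their values were seen. No region sequence is shown, since no mm9 genome was used here.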

Additional observations from a re-analysis of the deposited data

How the results depend on the processing

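With equal numbers of the best-scoring peaks per library, 1001 regions remained, 69.1% on internal exons alone and 29.9% over 50% exonic. With the higher-scoring 50% of each list there were 716, 65.8% on internal and 25.3% on last exons alone, 52.0% with more stress libraries and 34.4% over 50% exonic. With the same covered length there were 915, 69.4% internal and 31.0% over 50% exonic. Taking 500 bp around the centre gave 67.6% internal and 27.3% last, and assigning each region to the class with most exonic bases gave 26.3% last. Leaving out each library in turn gave 1905 to 2640 regions. A larger share of the stress than of the control libraries had a peak in 50.1% to 79.9% of them, and in 43.6% to 73.9% of the other regions. No region could have equal shares of both groups in these settings, so these values are not comparable with those from all libraries. With each library left out in turn, the first-exon difference between groups ran from -0.0435 to 0.119 percentage points and turned negative without stress 1. The internal difference became 2.31 points when bases under peaks were counted in place of peaks, and the last-exon difference became 0.130 points with the higher-scoring 50%. With a pseudocount of 0.1, 6 of 1066 host genes were at least 2-fold higher and 3 lower, against 62 and 60 of 10685 genes. With the most abundant isoform they numbered 15 and 7 of 1045, against 120 and 93 of 10504, and after centring on the all-gene median 1 was higher, against 29. List genes with a region fell from 17.4% to 6.29% with regions in 5 libraries only, while the share over all genes fell from 6.35% to 2.33%. Causes of these shifts were not tested. The other settings kept the direction of these results. No setting could take a class comparison past the threshold of 0.05, because the smallest possible p was 0.1 or more.

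Same-numbered libraries did not deviate together (correlations of 0.0158, -0.00165 and 0.000180 over 32036 regions), so the numbers were not taken to pair them. With the replicate number as a block, the internal difference was -1.28 points (exact p = 0.5), the last difference -1.03 (exact p = 0.25) and the first difference 0.0508 (exact p = 1). The smallest p this block test can give is 0.25, so the last difference stood at that limit. Same covered length, the 500 bp window and the classes of exonic share were chosen after seeing the data. List length limits how many regions a library can hold. Intervals cover counting error only.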

Other observations

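Genes with a symbol beginning Zfp, Zbtb or Zscan, which encode zinc finger proteins, were looked at after several appeared among the longest and the highest-scoring regions. Of 409 such genes in the table, 38 (9.29%) carried an exonic region. Among those of at least 10 kb and 1 FPKM or more, 22 of 218 (10.1%) did, against 953 of 7908 (12.1%) over all genes, a share no higher. Of their 39 regions, 18 (46.2%) lay on last exons alone, 29 (74.4%) were over 50% exonic, and 28 (71.8%) had a peak in more stress than control libraries. Over all 1541 regions these shares were 21.1%, 26.4% and 48.4%, and among all regions of 50% to below 75% and of 75% or more exonic bases, 64.6% and 62.4% had more stress libraries. The median number of exonic bases was 1357, against 272 over all exonic regions, and the median score percentile was 78.4 against 69.5. The regions were picked by symbol after values were seen, and no test was made. Many of these genes encode their fingers in a single long exon, as background.

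By chromosome, exonic regions made up between 17.5% of the regions in 4 or 5 libraries (chromosome 1) and 29.1% (chromosome 11). Per megabase of exonic sequence they numbered between 16.2 (chromosome 7) and 32.0 (chromosome 12). Neighbouring exonic regions lay a median of 590 kb apart, and 38 of 1522 neighbouring pairs were within 10 kb.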
